A study of Mus musculus with 6 samples.

Results

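The hypoxia-responsive genes described here are P4ha1, P4ha2, Ddit4, Vegfa, Slc2a1, Pdk1, Hk2, Bnip3 and Hif1a, taken from adrenal gland expression arrays of a hypertensive and a hypotensive mouse strain. Their probe sets were all those whose only gene symbol in the platform annotation was one of these names. That gave 12 probe sets for the 9 genes, among 8251 genes with a single-symbol probe set. The arrays were Affymetrix arrays hybridised with biotin-labelled RNA of isolated adrenal glands. The BPH group held 3 arrays of the hypertensive BPH strain, and the BPL group held 3 arrays of the hypotensive BPL strain. All mice were males aged 12 weeks with no treatment given in the labels, and other strains of the same selection were not analysed here. The extraction protocol counts 3 mice per strain without tying a mouse to an array. If glands were pooled or split, the p-values below reflect technical as well as animal variation.

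Cells adapt to low oxygen through the hypoxia-inducible factors, dimers of an oxygen-regulated alpha subunit such as HIF-1α (the product of Hif1a) and the stable partner ARNT. In oxygen, prolyl hydroxylases of the EGLN family mark the alpha subunit for ubiquitination by the VHL complex, so that HIF-1α is controlled mainly at the level of the protein and not of its mRNA. When oxygen falls, the factor binds a short core motif, the hypoxia response element, and raises genes of glucose uptake and glycolysis, of mitochondrial restraint, of blood vessel growth and of collagen folding. Several of these genes also answer to other signals, and Ddit4 is known as a target of glucocorticoids and of the ATF4 stress response.

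Of the 9 genes, Ddit4 and P4ha1 were higher in BPH adrenals by 2.81-fold and 2.98-fold, and the other 7 did not pass the test. Vegfa lay just outside the threshold at 1.68-fold higher, and the tested probe set of Hk2 had a fold of 0.496 without passing. Hif1a itself and the glucose transporter gene Slc2a1 had differences near 0. These folds are on the log2 scale with a pseudocount of 203 (the 20th percentile of all signals), which understates the change of dim genes. The test was limma over 7453 probe sets with Benjamini-Hochberg adjustment and a threshold of 0.05. Of the 12 member probe sets, 11 were bright enough to be tested, and 2 of these were called, both higher. Over all tested probe sets 4.11% were called, with 3.18% higher and 0.926% lower. The members were chosen with earlier results of these data known, so this comparison of shares carries no test. The median log2 difference was 0.02 over the 11 tested member probe sets and 0.08 over all tested probe sets.

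**Figure D1:**
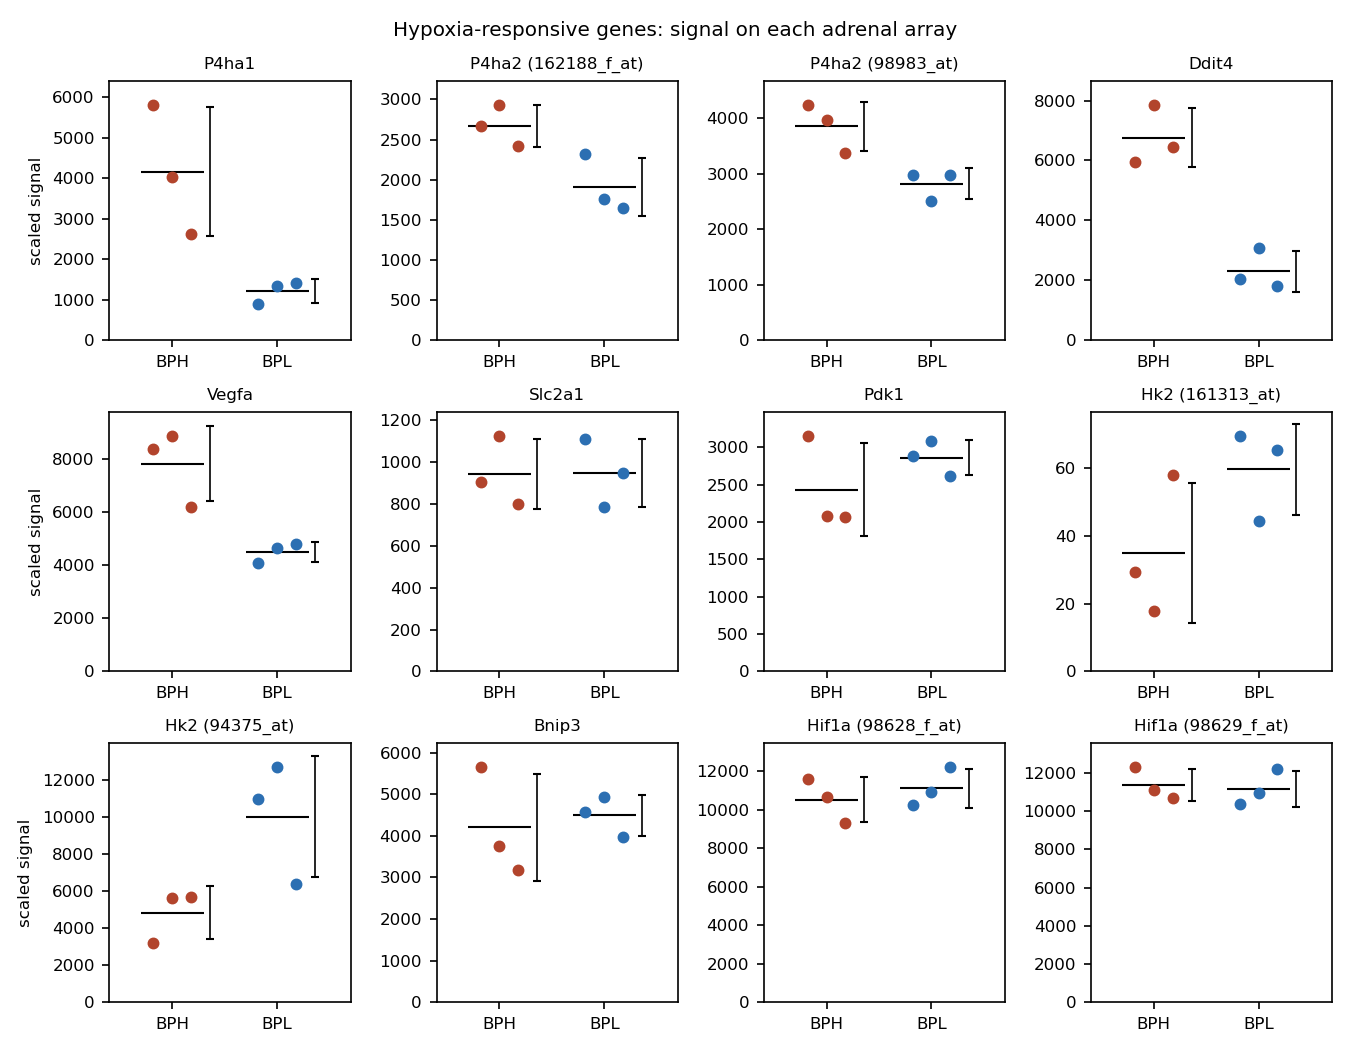
Scaled signal (vertical axis, linear from 0, arbitrary units) of each of the 12 member probe sets on the 3 BPH arrays (left, red) and the 3 BPL arrays (right, blue). The horizontal line is the mean and the bar beside it is the SD over 3 arrays. The BPH points lie above the BPL points for P4ha1, P4ha2, Ddit4 and Vegfa, and below them for the bright Hk2 probe set.

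The promoters of the members were searched for the hypoxia response element core, spelled ACGTG or GCGTG, on both strands, in windows from 250 bases before to 50 bases after each transcription start in the RefSeq table of build GRCm38.p6. All 9 genes matched the table, with 11 windows, and 9 of the 11 windows held at least 1 match. Each gene had a window with one, but for Vegfa this was only the downstream window. Whether a window acts as a promoter in the adrenal gland was not tested. The same search found at least 1 match in 43.8% of all 32851 windows in that table. The promoter of Bnip3 held the most matches of the member windows, 5, a number reached or passed by 1.66% of all windows. P4ha1 held 3 matches, against at least 3 in 8.93% of all windows, and Ddit4 held 2, against at least 2 in 20.6%. P4ha2, which was not called, held 4, against at least 4 in 3.86%. Hif1a held 3, and Slc2a1, Hk2 and the windows with matches of Pdk1 and Vegfa held 2 each. The core can overlap the palindromic E-box CACGTG, where it is counted once on each strand, and this occurred 1 time each in Bnip3 and Hif1a. The windows of P4ha1 and Ddit4 are shown because these genes were called, and that of Bnip3 because it held the most matches in a gene that was not called. The upstream Vegfa window is shown as one with 0 matches in a gene near the threshold, while its downstream window held 2. Capitals mark the matches on either strand. A match describes letters in a window and is not a measured binding site.
P4ha1, chr10:59323046-59323345, plus strand: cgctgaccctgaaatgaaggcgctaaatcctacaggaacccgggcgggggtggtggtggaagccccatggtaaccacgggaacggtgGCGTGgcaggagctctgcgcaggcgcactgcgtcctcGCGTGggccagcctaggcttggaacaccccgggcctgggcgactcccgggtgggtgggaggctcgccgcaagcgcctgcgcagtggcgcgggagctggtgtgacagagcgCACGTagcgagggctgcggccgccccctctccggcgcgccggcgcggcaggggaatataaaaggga
Ddit4, chr10:59951721-59952020, minus strand: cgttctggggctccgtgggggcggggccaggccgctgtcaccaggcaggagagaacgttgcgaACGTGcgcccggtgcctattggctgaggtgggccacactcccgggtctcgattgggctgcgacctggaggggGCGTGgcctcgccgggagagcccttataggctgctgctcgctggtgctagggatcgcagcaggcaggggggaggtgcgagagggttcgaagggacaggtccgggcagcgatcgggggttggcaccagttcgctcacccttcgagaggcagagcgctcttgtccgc
Bnip3, chr7:138909457-138909756, minus strand: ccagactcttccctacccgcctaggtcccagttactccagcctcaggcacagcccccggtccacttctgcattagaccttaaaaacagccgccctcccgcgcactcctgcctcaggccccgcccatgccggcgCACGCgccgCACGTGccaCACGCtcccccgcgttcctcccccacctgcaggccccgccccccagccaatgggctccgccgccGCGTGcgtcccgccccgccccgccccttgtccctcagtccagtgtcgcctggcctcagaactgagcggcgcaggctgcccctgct
Vegfa, chr17:46032328-46032627, minus strand: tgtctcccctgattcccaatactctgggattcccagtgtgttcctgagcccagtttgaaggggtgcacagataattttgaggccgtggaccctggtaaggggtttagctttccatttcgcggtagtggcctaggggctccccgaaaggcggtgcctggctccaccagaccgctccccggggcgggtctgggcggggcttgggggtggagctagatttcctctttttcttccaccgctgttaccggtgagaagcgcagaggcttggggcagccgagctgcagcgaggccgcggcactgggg

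P4ha1 and P4ha2 encode alternative catalytic alpha subunits of collagen prolyl 4-hydroxylase, the endoplasmic reticulum enzyme whose product, hydroxyproline, stabilises the collagen triple helix. P4ha1 had signals of 5810, 4038 and 2632 in BPH replicates 1, 2 and 3, against 888, 1334 and 1427 in BPL replicates 1, 2 and 3. Every BPH array lay above every BPL array, although the BPH arrays themselves spanned 2.21-fold. The log2 difference was 1.57 ± 0.28 (SE, 95% interval 0.93 to 2.22, limma adjusted p = 0.0219). P4ha1 was the member whose call depended most on single arrays. It was no longer called without BPH replicate 1 (limma adjusted p = 0.0637), BPH replicate 2 (0.0888), BPL replicate 1 (0.0707) or BPL replicate 2 (0.0507), at log2 differences of 1.31 to 1.64, and the same held with no filter on dim probe sets (0.0630) and without BPL replicates 1 and 2 together (0.259).

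P4ha2 was measured by a pair of probe sets that gave nearly the same difference. Probe set 98983_at had signals of 4231, 3953 and 3366 in BPH, against 2977, 2503 and 2980 in BPL. Probe set 162188_f_at had 2667, 2930 and 2415 in BPH, against 2327, 1756 and 1648 in BPL. In each case the strains did not overlap and the gap was small. The log2 differences were 0.42 ± 0.16 and 0.45 ± 0.17 (SE, limma adjusted p = 0.192 and 0.195), and neither passed. Within each array, the log2 ratio of P4ha1 to P4ha2 was higher in BPH than in BPL by 1.15 with 98983_at and by 1.12 with 162188_f_at, with no overlap of the strains (exact permutation test over arrays, 2-sided, p = 0.1 and adjusted p = 0.1 for each of 2 comparisons, the smallest that 3 against 3 arrays allow). This ratio does not use the scaling between arrays beyond the pseudocount.

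Of 16 tested genes of collagen prolyl and lysyl hydroxylation, collagen folding and the collagens themselves, P4ha1 was the only one called, and 0 were lower. Of genes with a tested probe set over the whole table, 3.62% were called higher, 1.02% lower and 4.63% in either direction. The counts of every list below are to be read beside these shares. The list had a median log2 difference of 0.20, with 18 of its 24 probe sets above 0. P4hb, the protein disulfide isomerase that serves as the beta subunit of the same enzyme, had log2 differences of 0.30 ± 0.29 and -0.10 ± 0.28 for its 2 probe sets (SE, limma adjusted p = 0.584 and 0.862). Alongside these genes, the 6 fibroblast markers had a mean log2 signal of 12.5 ± 0.109 in BPH and 12.6 ± 0.116 in BPL (SD, n = 3). This mean took the brightest probe set of each gene. For Col1a1 and Col1a2 these had log2 differences of -0.09 and -0.32, and the other probe sets 0.58 and 0.43. For Col3a1 and Pdgfra these had 0.15 and 0.32, and the others -0.16 each. The level thus depends on the probe sets chosen. Over all probe sets 0 of the 6 markers were called by limma (4 had an unadjusted p under 0.05 in at least 1 probe set). Col1a1, Col1a2 and Col3a1 are also in the collagen list, so the comparison partly repeats it.

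Ddit4 encodes REDD1, a small protein that restrains the growth kinase complex mTORC1 through the TSC complex. Ddit4 signals were 5950, 7849 and 6453 in BPH replicates 1, 2 and 3, against 2038, 3084 and 1808 in BPL replicates 1, 2 and 3. The lowest BPH array, replicate 1, was well above the highest BPL array, replicate 2. On the log2 scale BPH exceeded BPL by 1.49 ± 0.22 (SE, 95% interval 0.998 to 1.99, limma adjusted p = 0.00807). Ddit4 was called under each of the 16 alternative settings, with log2 differences of 1.34 to 1.78 and limma adjusted p from 9.12e-04 to 0.0446. In the genome annotation P4ha1 and Ddit4 lie on chromosome 10 with 16 annotated genes between them, and none of those had a single-symbol probe set on this array.

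Like Ddit4, the immediate early genes, a class induced fast and without new protein synthesis, had higher signals in BPH. Of 17 tested immediate early genes 15 were called higher in BPH and 0 lower. Their mean log2 signal was 13.2, 13.7 and 13.2 in BPH replicates 1, 2 and 3, against 11.1, 11.2 and 11.2 in BPL replicates 1, 2 and 3. Their summed signal ran from 251902 to 330924 in BPH and from 52997 to 66213 in BPL. Replicate 2 was the highest array for Ddit4 and for these genes within each strain. The lowest arrays differed. In BPH, Ddit4 was lowest in replicate 1 and these genes in replicate 3. In BPL, Ddit4 was lowest in replicate 3 and these genes in replicate 1. Chromaffin markers also stood higher, at a mean log2 signal of 14.2 ± 0.168 in BPH and 13.5 ± 0.303 in BPL (SD, n = 3), with 3 of 8 called higher and summed signals of 240198 to 308902 in BPH and 148215 to 231621 in BPL. The part of either group in the Ddit4 and P4ha1 differences was not tested. In bulk tissue, fewer cells of a type and less RNA per cell cannot be told apart.

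No other gene of the mTORC1 pathway list was called, where 4.63% of genes were called over the whole table. Of 10 tested genes around Ddit4 and mTORC1, including the upstream Tsc1 and Tsc2, the kinase Mtor and the translation repressors Eif4ebp1 and Eif4ebp2, Ddit4 was the only one called. The list median was -0.07, and 5 of 13 probe sets were above 0. An unadjusted p under 0.05 in at least 1 probe set was found for 4 of the 10, Ddit4, Mtor, Akt1 and Sesn1. Mtor had -0.68 with 103309_at and -0.38 with 95302_at (limma adjusted p = 0.0861 and 0.292). Akt1 had 0.58 and Sesn1 had -0.47 (limma adjusted p = 0.144 and 0.210).

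Vegfa encodes the vascular endothelial growth factor that drives the sprouting of new vessels. Vegfa signals were 8366, 8865 and 6208 in BPH, against 4087, 4641 and 4809 in BPL. The strains did not overlap, and BPH replicate 3 was the nearest to BPL. The difference on the log2 scale was 0.75 ± 0.18 (SE, 95% interval 0.34 to 1.16, limma adjusted p = 0.0575), which missed the threshold. With a higher pseudocount (the 40th percentile) it passed at a limma adjusted p of 0.0362, and it passed with the stricter filter that left out the lowest 60% of probe sets (0.0213), with a trended and robust variance (0.0199) and without BPH replicate 3 (0.0448). The other 12 settings left it above the threshold, up to 0.466.

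Among 8 tested VEGF ligands and receptors, Vegfd was called higher and 0 genes were called lower. Vegfd, a ligand known for acting on lymphatic vessels, had signals of 7320, 7936 and 5471 in BPH, against 2005, 2215 and 2567 in BPL. No array of one strain came near the other, and the log2 difference was 1.52 ± 0.19 (SE, limma adjusted p = 0.00352). It kept its direction but not its call without BPL replicates 1 and 2 (1.34, limma adjusted p = 0.0898). Vegfb, a ligand of the receptor Flt1, did not pass at -0.26 ± 0.16 (SE, limma adjusted p = 0.377), and neither Flt1 nor Kdr, the main VEGF receptor of endothelium, was called. The list median was 0.22. Alongside, 0 of 9 endothelial markers were called by limma (3 had an unadjusted p under 0.05 in at least 1 probe set). Their mean log2 signal was 11.5 ± 0.119 in BPH and 11.4 ± 0.233 in BPL (SD, n = 3). Flt1 and Kdr are in both lists, so these markers partly repeat the VEGF list.

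**Figure D2:**
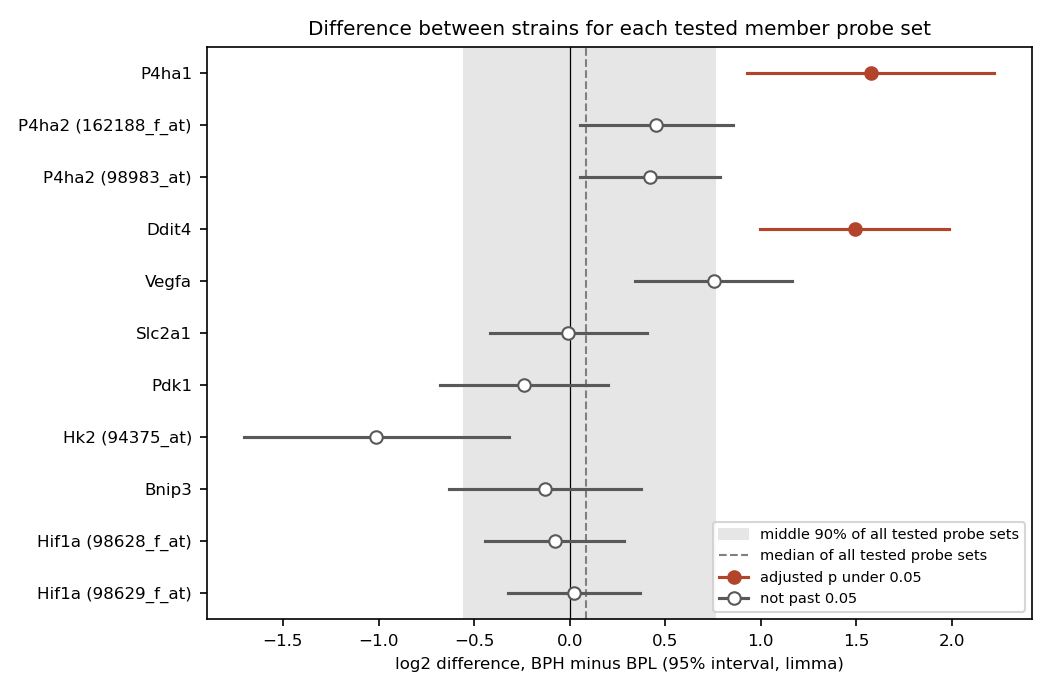
Log2 difference of BPH minus BPL (horizontal axis) with its 95% interval from limma for the 11 tested member probe sets. Filled red points passed the threshold, grey shading holds the middle 90% of all tested probe sets (-0.55 to 0.76) and the dashed line is their median, 0.08. P4ha1 and Ddit4 lie to the right of the shading and Hk2 to its left.

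The genes of glucose entry and phosphorylation did not follow Ddit4 and P4ha1. Slc2a1, which encodes the basal glucose transporter GLUT1, had signals of 905, 1124 and 797 in BPH, against 1107, 784 and 949 in BPL. The strains overlapped fully. BPH minus BPL was -0.01 ± 0.18 on the log2 scale (SE, 95% interval -0.42 to 0.40, limma adjusted p = 0.989), and its sign turned in 4 alternatives, so no direction is given. With the stricter filter Slc2a1 was too dim to be tested.

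Hk2 encodes hexokinase 2, the inducible enzyme that traps glucose in the cell as its phosphate and is abundant in skeletal muscle and fat. Its probe set 94375_at had signals of 3187, 5642 and 5686 in BPH replicates 1, 2 and 3, against 10974, 12709 and 6413 in BPL replicates 1, 2 and 3. All BPH arrays were below all BPL arrays, but BPL replicate 3 was close to the higher BPH arrays. The log2 difference was -1.01 ± 0.30 (SE, 95% interval -1.70 to -0.32, limma adjusted p = 0.114). It passed in 2 settings, with the stricter filter (limma adjusted p = 0.0470) and without BPL replicate 3 (-1.30, limma adjusted p = 0.0369). The second Hk2 probe set, 161313_at, had signals from 17.8 to 57.8 in BPH and from 44.4 to 69.4 in BPL, among the dimmest on the array, and was not tested.

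Skeletal muscle markers, like Hk2, had higher signals in BPL. Of 15 such markers with a probe set 13 were tested, and 7 were called lower in BPH and 0 higher. Their mean log2 signal was 9.70, 9.51 and 9.72 in BPH replicates 1, 2 and 3, against 13.3, 14.3 and 11.1 in BPL replicates 1, 2 and 3. BPL replicate 2 was highest and BPL replicate 3 lowest among the BPL arrays, for Hk2 as for these markers. Within BPH the orders differed, with Hk2 lowest in replicate 1 and the markers lowest in replicate 2. Their summed signal ran from 12281 to 13700 in BPH and from 37392 to 433467 in BPL. Without BPL replicates 1 and 2 the Hk2 difference was -0.44, where the lone BPL array is assumed to vary like the other group. Those replicates had the highest Hk2 signals, so leaving them out shrinks the difference whatever its cause. The muscle part of the Hk2 difference was not tested.

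Of 7 tested glucose transporters and hexokinases 0 were called by limma, and 1 (Hk2) had an unadjusted p under 0.05. Their median log2 difference was -0.17. Slc2a3, the transporter GLUT3 of neurons, had 0.28 ± 0.19 (SE, limma adjusted p = 0.425). Slc2a4, the insulin-responsive transporter GLUT4 of muscle and fat, had -0.54 ± 0.25 (SE, limma adjusted p = 0.262), with its highest signal, 6880, in BPL replicate 2.

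Pdk1 and Bnip3 represent the mitochondrial arm of the response. Pdk1 encodes a kinase that switches off pyruvate dehydrogenase and so keeps pyruvate out of the citric acid cycle. Pdk1 signals were 3149, 2082 and 2062 in BPH, against 2884, 3079 and 2611 in BPL. BPH replicate 1 was the highest array of all and the other BPH arrays were the lowest. The log2 difference was -0.24 ± 0.19 (SE, 95% interval -0.68 to 0.20, limma adjusted p = 0.508).

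Bnip3 encodes an outer mitochondrial membrane protein that recruits the autophagy machinery to mitochondria. Bnip3 signals were 5652, 3768 and 3181 in BPH, against 4580, 4935 and 3971 in BPL. The arrays of the strains overlapped, again with BPH replicate 1 on top. The log2 difference was -0.13 ± 0.22 (SE, 95% interval -0.63 to 0.37, limma adjusted p = 0.773). Its sign turned without BPH replicate 3, where it was 0.043, and without BPL replicates 1 and 2, where it was 0.038. BPH replicate 1 was also the highest BPH array for P4ha1 and for both Hif1a probe sets. Among 7 brown and white fat markers it was the highest BPH array for Ucp1, Cidea, Adipoq, Fabp4 and Pparg, and the lowest for Lep and Retn. Ucp1, the brown fat uncoupling protein gene, had signals of 46044, 27118 and 27570 in BPH, against 64979, 63359 and 48780 in BPL (99507_at). Retn, the resistin gene of white fat, had 20337, 20865 and 23379 in BPH, against 9540, 7973 and 16025 in BPL, and neither gene passed. Of 7 brown and white fat markers 0 were called by limma (3 had an unadjusted p under 0.05 in at least 1 probe set), and their summed signal ran from 140551 to 198493 in BPH and from 182928 to 194606 in BPL. The part of fat tissue in the spread among BPH arrays was not tested.

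Around Pdk1, 7 genes of pyruvate dehydrogenase, its kinases and its phosphatases were tested, with 1 called lower and 0 higher. The called gene was Dlat, the acetyltransferase core of the complex, at -0.98 ± 0.20 with probe set 96746_at (SE, limma adjusted p = 0.0358). Its signals there were 2932, 2110 and 2166 in BPH, against 6211, 4240 and 4385 in BPL, without overlap. The other Dlat probe set, 96745_at, gave -0.02 ± 0.21 (SE, limma adjusted p = 0.965), so the gene's probe sets disagree. Probe set 96746_at lost its call in 8 settings, each of those that left out 1 array except BPL replicate 3 among them (limma adjusted p of 0.0577 to 0.147). The sister kinase genes Pdk3 and Pdk4 had 0.74 ± 0.20 and -0.58 ± 0.39 (SE, limma adjusted p = 0.0846 and 0.420) and did not pass, and the list median was -0.35. Of the 7 genes, 4 had an unadjusted p under 0.05 in at least 1 probe set. Among these, Dlat, Pdha1 and Dld lay below 0 and Pdk3 above 0. Pdha1 had -0.79 ± 0.21 and Dld had -0.47 ± 0.19 (SE, limma adjusted p = 0.0867 and 0.217), and neither passed. Every BPH array lay below every BPL array for Pdha1, while the strains overlapped for Dld. Of 11 tested genes around Bnip3 and mitophagy 0 were called by limma, 1 had an unadjusted p under 0.05 and the median was 0.10.

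Hif1a showed no difference in its mRNA that these arrays could detect. Probe set 98628_f_at had signals of 11604, 10646 and 9307 in BPH, against 10213, 10915 and 12204 in BPL. Probe set 98629_f_at had 12310, 11095 and 10671 in BPH, against 10379, 10936 and 12208 in BPL. Both strains covered nearly the same range on each probe set. The suffix _f_at, shared with a P4ha2 probe set, marks probes that can also match related transcripts. The log2 differences were -0.08 ± 0.16 (SE, 95% interval -0.44 to 0.28, limma adjusted p = 0.806) and 0.02 ± 0.15 (SE, 95% interval -0.32 to 0.37, limma adjusted p = 0.943). The sign of the second turned to -0.091 with the authors' scaling, -0.14 after quantile normalization and -0.078 after centring, so no direction is given for this gene.

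Of 15 tested genes of the HIF pathway, from the alpha subunits and ARNT to the hydroxylases, the VHL complex and the coactivators, 3 were called higher in BPH and 0 lower, with a median of 0.02. Those called were Cited2, Siah2 and Hsp90aa1. Cited2 encodes a protein that competes with HIF-1α for the coactivators CBP and p300 and is itself a HIF target. Its signals were 4424, 5567 and 4385 in BPH, against 1798, 2252 and 2484 in BPL, a log2 difference of 1.07 ± 0.18 (SE, limma adjusted p = 0.0162). Siah2, a ubiquitin ligase that degrades EGLN hydroxylases, had 3985, 3674 and 2218 in BPH, against 1052, 1650 and 1383 in BPL, a log2 difference of 1.14 ± 0.25 (SE, limma adjusted p = 0.0407). Hsp90aa1, a heat shock chaperone that holds HIF-1α among many clients, had 81524, 70521 and 54016 in BPH, against 16506, 21738 and 27447 in BPL, a log2 difference of 1.65 ± 0.23 (SE, limma adjusted p = 0.00668). The BPH arrays were above the BPL arrays for all 3 genes. Siah2 lost its call in 10 of the 16 alternatives, with a limma adjusted p of up to 0.283. Single arrays decided it, at 0.134 without BPH replicate 1, 0.155 without BPH replicate 2, and 0.117, 0.0661 and 0.0611 without BPL replicates 1, 2 and 3 in turn. Cited2 lost its call in 5 of the 16, with a limma adjusted p of up to 0.221, among them without BPH replicate 1 (0.0524), BPH replicate 2 (0.0794) and BPL replicate 2 (0.0506). Hsp90aa1 lost its call in 1, without BPL replicates 1 and 2 together (limma adjusted p = 0.109). Without BPL replicates 1 and 2, 0 of the list were called by limma (3 had an unadjusted p under 0.05).

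Over the list 10 probe sets were above 0 and 9 below. Epas1, the HIF-2α gene, which chromaffin cells are known to express in development, had -0.32 ± 0.21 (SE, limma adjusted p = 0.421). Arnt had -0.18 ± 0.18 (SE, limma adjusted p = 0.591). Egln1, the main HIF prolyl hydroxylase gene and a HIF target itself, had -0.56 ± 0.23 (SE, limma adjusted p = 0.221). None of these passed, and neither did Egln2, another HIF prolyl hydroxylase gene, at 0.25 ± 0.14 (SE, limma adjusted p = 0.348), nor Crebbp, the coactivator gene, at 0.55 ± 0.14 (SE, limma adjusted p = 0.0776). For Egln2 and Crebbp every BPH array lay above every BPL array, as for 19.7% of all tested probe sets. For Siah1a, also in the list, every BPH array lay below every BPL array, as for 7.97% of them. Siah1a had -0.46 ± 0.17 (SE, limma adjusted p = 0.182) and did not pass.

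Of 34 tested other HIF target genes 2 were called higher and 0 lower, beside 3.62% and 1.02% of genes over the whole table. Their median was 0.06, with 24 of 43 probe sets above 0. The called genes were Cited2, already counted in the HIF pathway list, and Cxcr4, the receptor of the chemokine CXCL12. Cxcr4 had signals of 8230, 10555 and 8125 in BPH, against 1913, 1572 and 2409 in BPL. The strains were far apart, at a log2 difference of 2.09 ± 0.19 (SE, limma adjusted p = 9.70e-04), and Cxcr4 was called under each of the 16 alternatives. Among the genes not called were the glycolytic targets Aldoa, Ldha, Pgk1, Tpi1, Pkm, Pfkl and Pfkp. An unadjusted p under 0.05 in at least 1 probe set was found for 9 of the 34. Besides the called genes these were Angptl4, Ccng2, Cp, Ndrg1 and Pgm2, above 0, and Egln1 and Pfkl, below 0. Nearest the threshold were Cp at 0.72 (limma adjusted p = 0.0560) and Ndrg1 at 0.65 and 0.56 (limma adjusted p = 0.0679 and 0.0706).

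**Figure D3:**
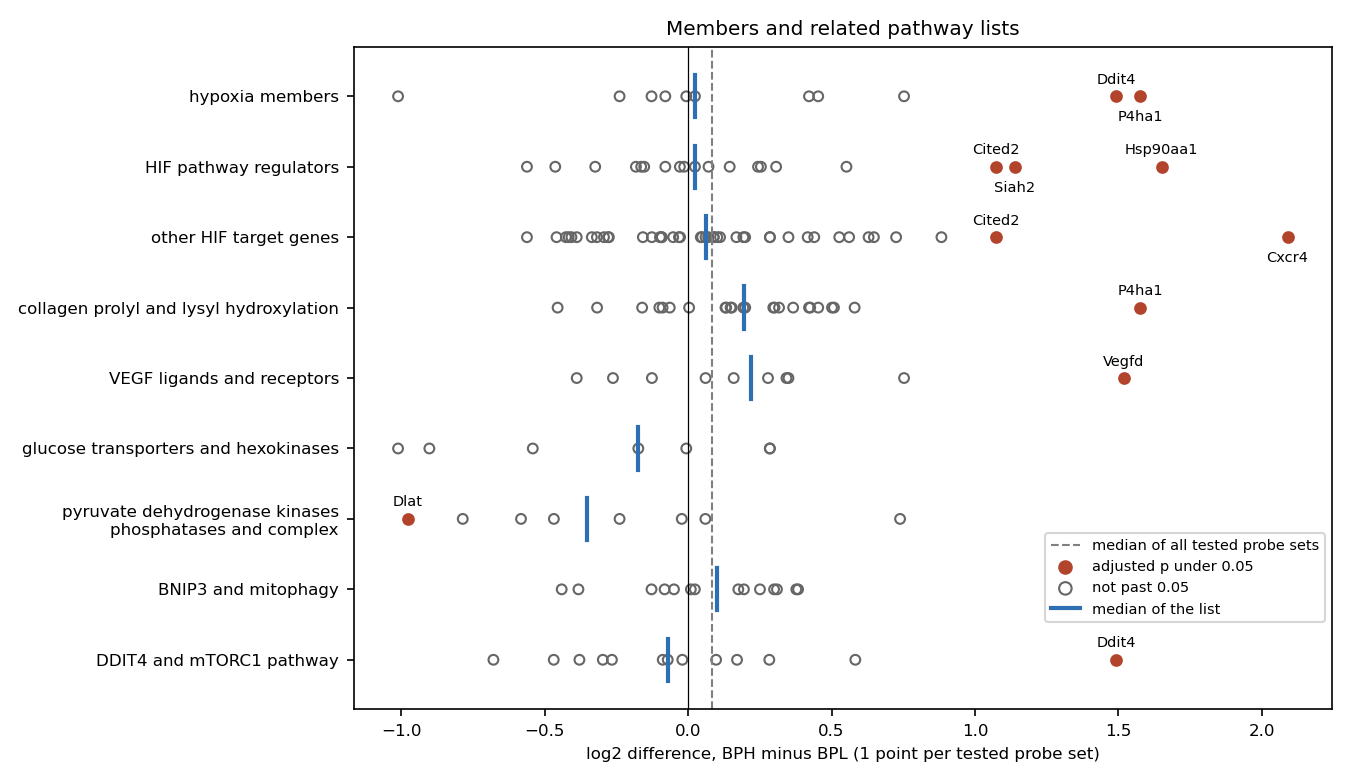
Log2 difference of BPH minus BPL (horizontal axis) for each tested probe set of the members (top row) and of 8 related pathway lists. Filled red points passed the threshold and are named, open points did not, blue ticks are list medians and the dashed line is the median of all tested probe sets, 0.08. Each list holds 0 to 3 called points, and list medians lie between -0.35 and 0.22.

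The genes whose log2 signals followed the called members most closely over the 6 arrays were found by Pearson correlation, as a description with no test. For P4ha1 these were Itgav, an integrin alpha subunit (r = 0.994), Ercc5, a DNA repair endonuclease (0.994), and Phlda1 (0.993). The second Itgav probe set overlapped between the strains. Of the 3 genes Phlda1 was called by limma, at 2.26 ± 0.34 (SE, limma adjusted p = 0.00954), with signals of 17282, 11140 and 6054 in BPH and 1694, 2010 and 2508 in BPL. For Ddit4 they were Slc25a28, a mitochondrial iron carrier (0.992), the immediate early phosphatase gene Dusp1 (0.991) and Plat, the tissue plasminogen activator gene (0.991). Dusp1 rose by 1.87 ± 0.28 (SE, limma adjusted p = 0.00871) and Plat by 0.89 ± 0.18 (SE, limma adjusted p = 0.0299). Dusp1 was called in all 16 alternatives, while Plat lost its call in 7, with a limma adjusted p of up to 0.162. For Plat these included the fits without BPH replicates 1, 2 and 3 in turn (0.0741, 0.125 and 0.0733), without BPL replicate 1 (0.0850) and without BPL replicate 3 (0.0594). Phlda1 lost its call in 1, without BPL replicates 1 and 2 together (0.171). With 6 arrays in 2 strains such values were not confined to these genes. Where 7453 probe sets were tested in all, 187 had r above 0.95 with P4ha1 and 68 with Ddit4.

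**Figure D4:**
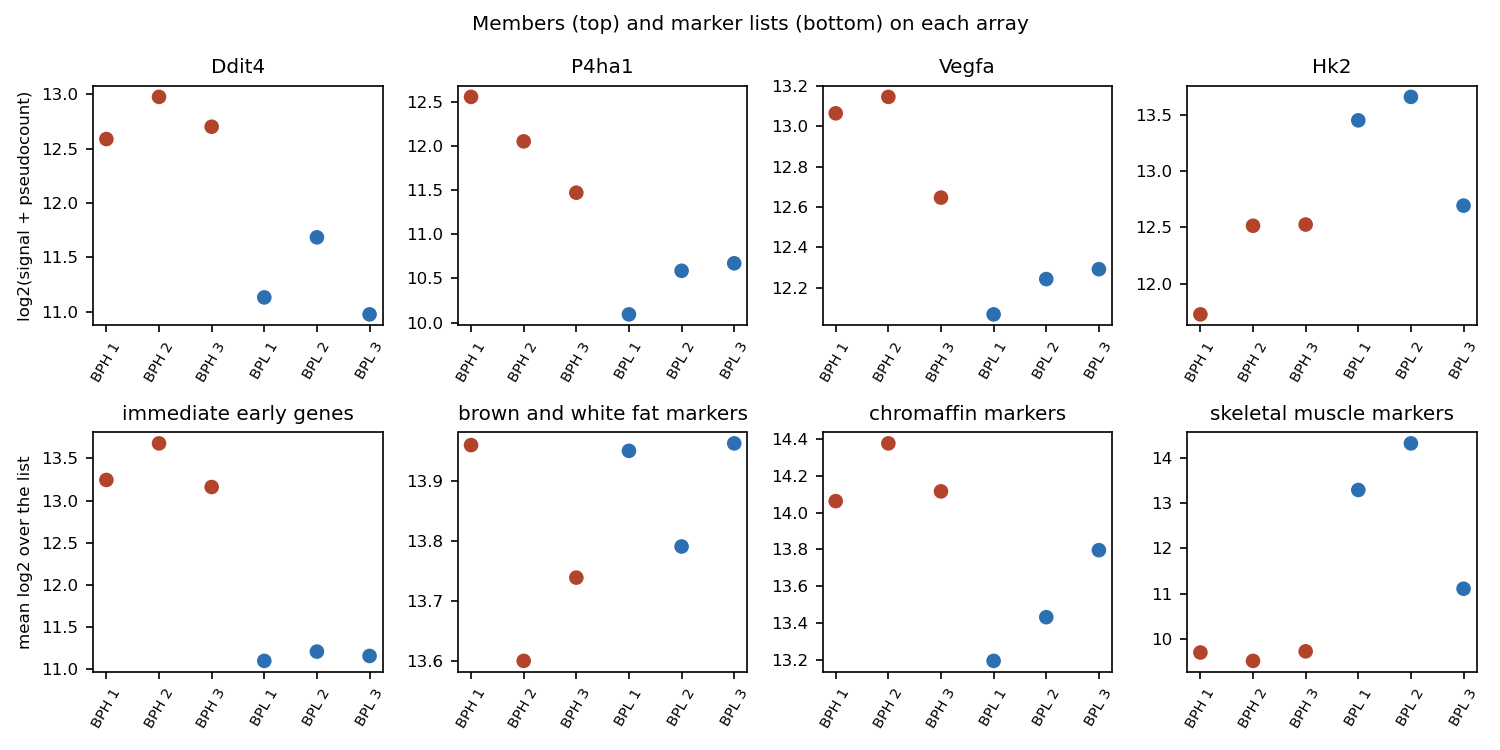
Upper row: log2(signal + 203) of Ddit4, P4ha1, Vegfa and Hk2 on each array, BPH in red and BPL in blue. Lower row: mean log2 signal of 17 immediate early genes and of 7 fat, 8 chromaffin and 13 skeletal muscle markers on the same arrays, each panel with its own vertical range. Immediate early genes are above 13 in every BPH array and below 12 in every BPL array, and muscle markers are highest in BPL replicates 1 and 2.

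Among the 11 tested member probe sets the arrays of the strains did not overlap in 6, with BPH above in 5 (P4ha1, both of P4ha2, Ddit4 and Vegfa) and below in 1 (Hk2). Over all tested probe sets this held for 27.6%, with BPH above in 19.7% and below in 7.97%. An unadjusted p under 0.05 was found for the same 6 member probe sets.

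Over all tested probe sets, 306 passed, 237 higher and 69 lower, so 77.5% of calls were higher in BPH. That share was 66.3% with the authors' scaling, 67.2% after quantile normalization and 68.3% after centring. A typical tested probe set (the median) differed by 0.08 on the log2 scale as reported and by -0.02 with the authors' scaling, and the differences given above are to be read against the median of 0.08. The cortical markers, steroidogenic genes such as Star and Cyp11a1, were bright in both strains, with a mean log2 signal of 15.9 ± 0.120 in BPH and 15.6 ± 0.173 in BPL (SD, n = 3), as were the chromaffin markers given above. Of 8 cortical genes 2 were called higher in BPH and 0 lower, and all 12 of their probe sets were above 0. The called genes were Nr5a1, the steroidogenic factor gene (1.24 ± 0.23, limma adjusted p = 0.0234, with its other 2 probe sets not called), and Mrap, the corticotropin receptor accessory protein gene (0.92 ± 0.16, limma adjusted p = 0.0195, SE for both). Their part in the differences of the hypoxia-responsive genes was not tested. BPL arrays also held the skeletal muscle signals given above. RNA quality was read from control probe sets at both ends of a transcript. For Gapdh the log2 signal at the 3' end minus that at the 5' end was 0.169 ± 0.0738 in BPH and -0.00142 ± 0.0504 in BPL, and that of Actb was 1.08 ± 0.156 in BPH and 0.856 ± 0.0568 in BPL (SD, n = 3). Both values separated the strains, BPH above (exact permutation test, 2-sided, p = 0.1 and adjusted p = 0.1 over 2 controls, the smallest that 3 against 3 arrays allow), and the part of RNA quality in the results was not tested.

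**Figure D5:**
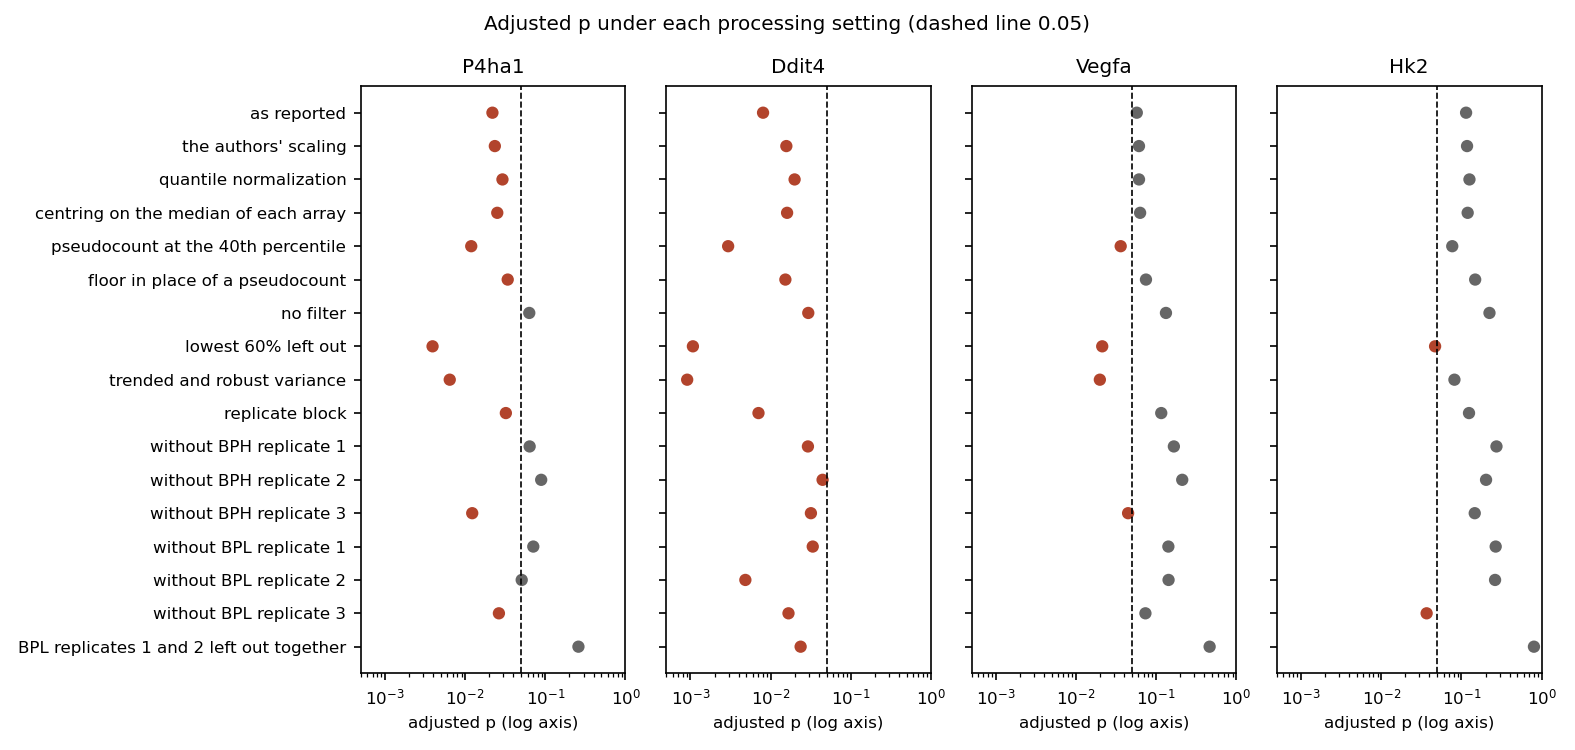
Adjusted p from limma (horizontal axis, logarithmic) of P4ha1, Ddit4, Vegfa and Hk2 as reported (top row) and under each of 16 alternative settings. Red points are below the threshold of 0.05, drawn as a dashed line. Ddit4 stays below it throughout, P4ha1 crosses it in 6 settings, Vegfa passes in 4 and Hk2 in 2.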

How the data were processed

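The deposited table holds signal intensities on a linear scale. Per the submitters' processing notes the tool was MAS5. Its version, settings and scaling target: not given in the sources used here. No detection calls were used. The table has 12488 probe sets, of which 66 controls were left out. Of the remaining 12422, 10833 had exactly 1 symbol in the platform annotation and were named by it, 396 had several and 1193 had none. Older symbols were updated to current ones in the gene lists, and the symbols of 10821 probe sets were found in the RefSeq gene table. Coordinates come only from the RefSeq promoter table (GRCm38.p6), since no build is stated for the array table.

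The deposited arrays already had nearly equal 2% trimmed means, from 2501.34 to 2501.53. Their medians still differed by 21.0%, so each array was scaled again, to the mean of the medians, 1040. The factors were 1.10, 1.06 and 0.976 for BPH replicates 1, 2 and 3, and 0.909, 0.999 and 0.981 for BPL replicates 1, 2 and 3. This moved differences towards BPH, with a median of 0.08 against -0.02 under the authors' scaling. Values were log2(signal + 203), and the dimmest 40% by mean log2 value were not tested, which left 7453 probe sets of 5664 genes. limma (version 3.58.1, R 4.3.3) compared BPH with BPL, 2-sided, on 4 residual degrees of freedom plus 4.50 from the prior. Benjamini-Hochberg adjustment ran over all tested probe sets. Errors of log2 differences are SE from limma, and other errors are SD over 3 arrays. Mean log2 signals and summed signals of marker lists used the brightest probe set of each gene, while counts of calls used every tested probe set. The number of arrays limits the precision. Between any pair of arrays at most 1 value was identical.

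The members, lists, tests and settings were chosen with earlier results of these data known. Named genes were the members, up to 4 called genes of each list, up to 2 uncalled relatives of a member per list, and the 3 genes most like each called member. Some list members named without values were added after their values were seen. The same holds for the values of Ucp1, Retn, Egln2, Crebbp, Siah1a, Mtor, Akt1, Sesn1, Cp, Ndrg1, Pdha1, Dld, the fibroblast markers and the cortical genes. The alternatives were the authors' scaling, quantile normalization, median centring, a pseudocount at the 40th percentile, a floor instead of a pseudocount, no filter on dim probe sets, the lowest 60% left out, a trended and robust variance, the replicate number as a block, each array left out, and BPL replicates 1 and 2 left out. Deviations from the strain means correlated between same-numbered arrays at -0.06, -0.05 and -0.18. These gave no sign that the numbers pair the samples, but 3 arrays per strain cannot exclude it. The labels state no pairing.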

Additional observations from a re-analysis of the deposited data

How the results depend on the processing

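Ddit4 and Cxcr4 were called under all 16 alternatives. The median over tested member probe sets ran from -0.09 to 0.22. In all, 306 probe sets were called as reported, 127 with no filter, 92 without BPL replicates 1 and 2, and 112 to 372 when 1 array was left out. Called member probe sets numbered 2 as reported, 1 with no filter, 4 with the lowest 60% left out (3 higher, 1 lower), 1 without BPL replicates 1 and 2, and 1 to 3 when 1 array was left out. Called HIF pathway genes numbered 3 as reported, 4 with the stricter filter, 1 with no filter, 0 without BPL replicates 1 and 2, and 1 to 3 with 1 array left out. Other HIF targets numbered 4 with the higher pseudocount, 1 with no filter, 5 with the stricter filter, 4 with the trended variance, 1 without BPL replicates 1 and 2, and 1 to 3 with 1 array left out. Collagen hydroxylation genes numbered 0 with no filter and without BPL replicates 1 and 2, and 0 to 1 with 1 array left out. VEGF genes numbered 2 with the higher pseudocount, the stricter filter or the trended variance, 0 without BPL replicates 1 and 2, and 1 to 2 with 1 array left out. Glucose transporters and hexokinases numbered 1 with the stricter filter, and 0 to 1 with 1 array left out. Pyruvate dehydrogenase genes numbered 2 with the authors' scaling or quantile normalization, 3 with the stricter filter or the trended variance, 0 with the floor, no filter or without BPL replicates 1 and 2, and 0 to 2 with 1 array left out. DDIT4 and mTORC1 genes numbered 2 with the stricter filter or the trended variance. In the limma fits without BPL replicates 1 and 2 where 0 genes of a list were called, 1 to 5 had an unadjusted p under 0.05 in every list but that of Bnip3 and mitophagy, which had 0. Where 1 array was left out, with the floor or with no filter, lists with 0 calls had 0 to 6 genes with an unadjusted p under 0.05. The causes of these changes were not tested, except that a fit without arrays has fewer samples.

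Signs turned for some differences, none of them called, among them Pdk4 (-0.58 as reported) and P4hb (161926_r_at, 0.30 as reported). The second Hif1a probe set (98629_f_at) was at -0.091 with the authors' scaling, -0.14 after quantile normalization, -0.078 after centring and -0.10 without BPL replicates 1 and 2. With 1 array left out it ran from -0.034 to 0.088, and the first (98628_f_at) from -0.15 to 0.0043. In the same fits Slc2a1 ran from -0.12 to 0.093, Bnip3 from -0.35 to 0.043, Dlat (96745_at) from -0.13 to 0.19, and P4hb from -0.34 to 0.19 (93108_at) and from -0.039 to 0.52 (161926_r_at). Without BPL replicates 1 and 2, Bnip3 was at 0.038, Dlat (96745_at) at 0.19, P4hb (93108_at) at 0.23 and Pdk4 at 0.12.

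With the replicate block 239 probe sets were called (172 higher, 67 lower), 2 of them member probe sets, with P4ha1 at a limma adjusted p of 0.0322. Of the named genes followed over the settings, Siah2 was the only one to lose its call there. The called cortical genes Nr5a1 and Mrap were not followed under any alternative. The block was run although the labels give same-numbered arrays no more than a shared number, and same-numbered arrays did not correlate best with each other.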
